A study of Homo sapiens with 12 samples.

Results

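The neurotrophin system is described here through 7 genes of the 60234 in the count table: the receptor gene NGFR, the ligand genes BDNF and NTF3, the kinase receptor genes NTRK2 and NTRK3, and the co-receptor genes SORT1 and SORCS2. The rows were found by gene symbol, and all 7 were present. The genes were chosen by how they differed between fast and parental cells in these same libraries, so that difference is given for them as a description, with no test. Of the 7, 5 passed the low-count filter that left 22668 genes, while NTF3 and NTRK3 did not.

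The cells were of MDA-MB-231, a long-established line grown from a human breast cancer of the triple-negative class, which is defined by low estrogen, progesterone and HER2 receptors, and their RNA was sequenced. Fast cells had been captured by their trajectory, and parental cells are the population they were compared with. Each population was sequenced in 2 batches with 3 libraries per batch, and the series calls these libraries technical replicates. No genetic change, drug or time point separates the groups in the labels, and both populations are the same line, so the results hold for this line alone.

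Neurotrophins are secreted proteins that are made as larger precursors and cut by convertases to their mature form. Mature neurotrophins bind the Trk receptor tyrosine kinases, with BDNF and NT-4 (NTF4) binding TrkB (NTRK2), and NT-3 (NTF3) binding TrkC (NTRK3). The p75 receptor (NGFR), a member of the tumour necrosis factor receptor family, binds all neurotrophins, and with sortilin (SORT1) or SorCS2 it binds the uncut precursors. In the breast, p75 is known as a marker of basal and myoepithelial cells.

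Promoter windows from RefSeq (GRCh38.p14, 250 bases before to 50 after a transcription start) were found for 5 of the 7 members, and none for NGFR and SORCS2. A window with the most CpG of its gene is shown for each of 3 members that cover the range of decreases below: NTRK2, which had no count in fast cells, BDNF, which was lower, and SORT1, which was lower by a small amount. Capitals mark CpG dinucleotides. The windows lie at chr9:84669783-84670082 on the plus strand, chr11:27721981-27722280 on the minus strand and chr1:109397869-109398168 on the minus strand.
NTRK2: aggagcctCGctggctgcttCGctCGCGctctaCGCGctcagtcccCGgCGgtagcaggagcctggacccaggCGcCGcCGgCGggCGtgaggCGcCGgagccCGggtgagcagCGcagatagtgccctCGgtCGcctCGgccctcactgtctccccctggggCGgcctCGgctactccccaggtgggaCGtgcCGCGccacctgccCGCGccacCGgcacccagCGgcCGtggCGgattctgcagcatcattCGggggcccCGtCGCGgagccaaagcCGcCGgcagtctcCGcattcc
BDNF: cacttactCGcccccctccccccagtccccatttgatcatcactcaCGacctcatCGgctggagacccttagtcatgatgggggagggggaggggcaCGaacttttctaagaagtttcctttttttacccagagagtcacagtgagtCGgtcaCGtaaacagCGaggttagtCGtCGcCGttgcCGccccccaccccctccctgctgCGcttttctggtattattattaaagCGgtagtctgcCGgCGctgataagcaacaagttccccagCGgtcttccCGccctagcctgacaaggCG
SORT1: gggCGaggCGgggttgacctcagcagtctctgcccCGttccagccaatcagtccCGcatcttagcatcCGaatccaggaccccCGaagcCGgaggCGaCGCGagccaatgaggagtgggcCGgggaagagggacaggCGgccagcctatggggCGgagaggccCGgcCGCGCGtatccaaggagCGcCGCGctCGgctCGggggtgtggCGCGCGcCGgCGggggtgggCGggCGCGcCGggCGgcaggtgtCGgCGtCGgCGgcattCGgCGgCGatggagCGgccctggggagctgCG
The NTRK2 window held 38 CpG, more than 90.1% of the 35116 windows of the table, and the SORT1 window held 41, more than 93.3%. The BDNF window held 18, near the table's median of 14. These windows were chosen for their CpG, which favours a high rank. The other windows held 10, 17 and 3 CpG for NTRK2, 6, 17, 17 and 8 for BDNF, and 3 for SORT1. Which start is used in these cells was not tested, so nothing about the levels is read from the ranks. The letters TGACG, part of the element bound by the factor CREB, were searched on both strands. They occurred in 1 of 4 NTRK2 windows and 1 of 5 BDNF windows, in none of the 3 windows shown, and in 24.6% of all windows of the table.

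The libraries held 53267145 to 75944907 counts each. Levels are in CPM, a gene's counts relative to its library's total after TMM adjustment, and 1 CPM was about 51.9 counts in the shallowest library. The mitochondrial share was 2.08% to 3.41%. Within a group, pairs of libraries had a dispersion index of 3.41 to 8.78, above the value of 1 that sampling alone would give, so none was counted as a duplicate. Nothing states that libraries came from separate cultures or captures, so the p-values speak only of scatter among libraries, possibly of technical origin. Of the line's markers, the mesenchymal filament gene VIM was abundant (6912 CPM in fast, 5050 CPM in parental cells) and the estrogen receptor gene ESR1 was at 0.139 CPM in each population. The progesterone receptor gene PGR was low but higher in fast cells, at 2.05 ± 0.49 against 0.477 ± 0.168 CPM (SD, n = 6, edgeR adjusted p = 6.2e-14). The HER2 gene ERBB2 had a level of 59.0 CPM (fast) and 62.4 CPM (parental), and the epithelial cadherin gene CDH1 had 8 and 3 counts over the 6 libraries of each population. In bulk RNA, fewer cells that express a gene and less RNA per cell cannot be told apart.

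NGFR was the one member that was higher in fast cells. In batch 1 the 3 fast libraries stood at 118.7, 117.4 and 114.8 CPM and the 3 parental libraries at 19.35, 20.46 and 20.61 CPM. In batch 2 the fast libraries stood at 117.7, 112.0 and 116.9 CPM and the parental libraries at 25.04, 24.44 and 26.26 CPM. The populations did not overlap, and every fast library lay far above the highest parental one. The fast mean was 116.2 ± 2.44 CPM and the parental mean 22.69 ± 2.89 CPM (SD, n = 6 libraries), a log2 fold change of 2.36 ± 0.05 SE or 5.14-fold. The log2 fold change was 2.54 ± 0.04 SE in batch 1 and 2.19 ± 0.04 SE in batch 2. The fast level was nearly the same in both batches, and the parental level was higher in batch 2.

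Among the ligand genes, BDNF was lower in fast cells. Its fast libraries stood at 12.56, 14.03 and 13.09 CPM in batch 1 and at 17.42, 17.52 and 18.66 CPM in batch 2. The parental libraries stood at 30.61, 31.88 and 35.50 CPM in batch 1 and at 44.94, 47.87 and 45.31 CPM in batch 2. The highest fast library was below the lowest parental library, and both populations were higher in batch 2. The means were 15.55 ± 2.62 and 39.35 ± 7.57 CPM (SD, n = 6), a log2 fold change of -1.34 ± 0.04 SE, or 2.53-fold lower. Within batches it was -1.30 ± 0.06 SE and -1.37 ± 0.06 SE.

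NTF3, the gene for neurotrophin-3, was nearly undetected. It had 6 counts in fast batch 1 replicate 3 and 0 counts in the other 11 libraries, so no level was compared. A ligand gene outside the 7, NTF4, encodes neurotrophin-4. It had levels of 0.715 ± 0.263 CPM (fast) and 0.502 ± 0.148 CPM (parental) and was not called (log2 fold change 0.47 ± 0.25 SE, edgeR adjusted p = 0.105). Its log2 fold change was 1.16 in batch 1 and -0.20 in batch 2, and it was called when fast batch 2 replicate 2 (adjusted p = 0.0209) or parental batch 2 replicate 1 (0.0493) was left out.

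**Figure D1:**
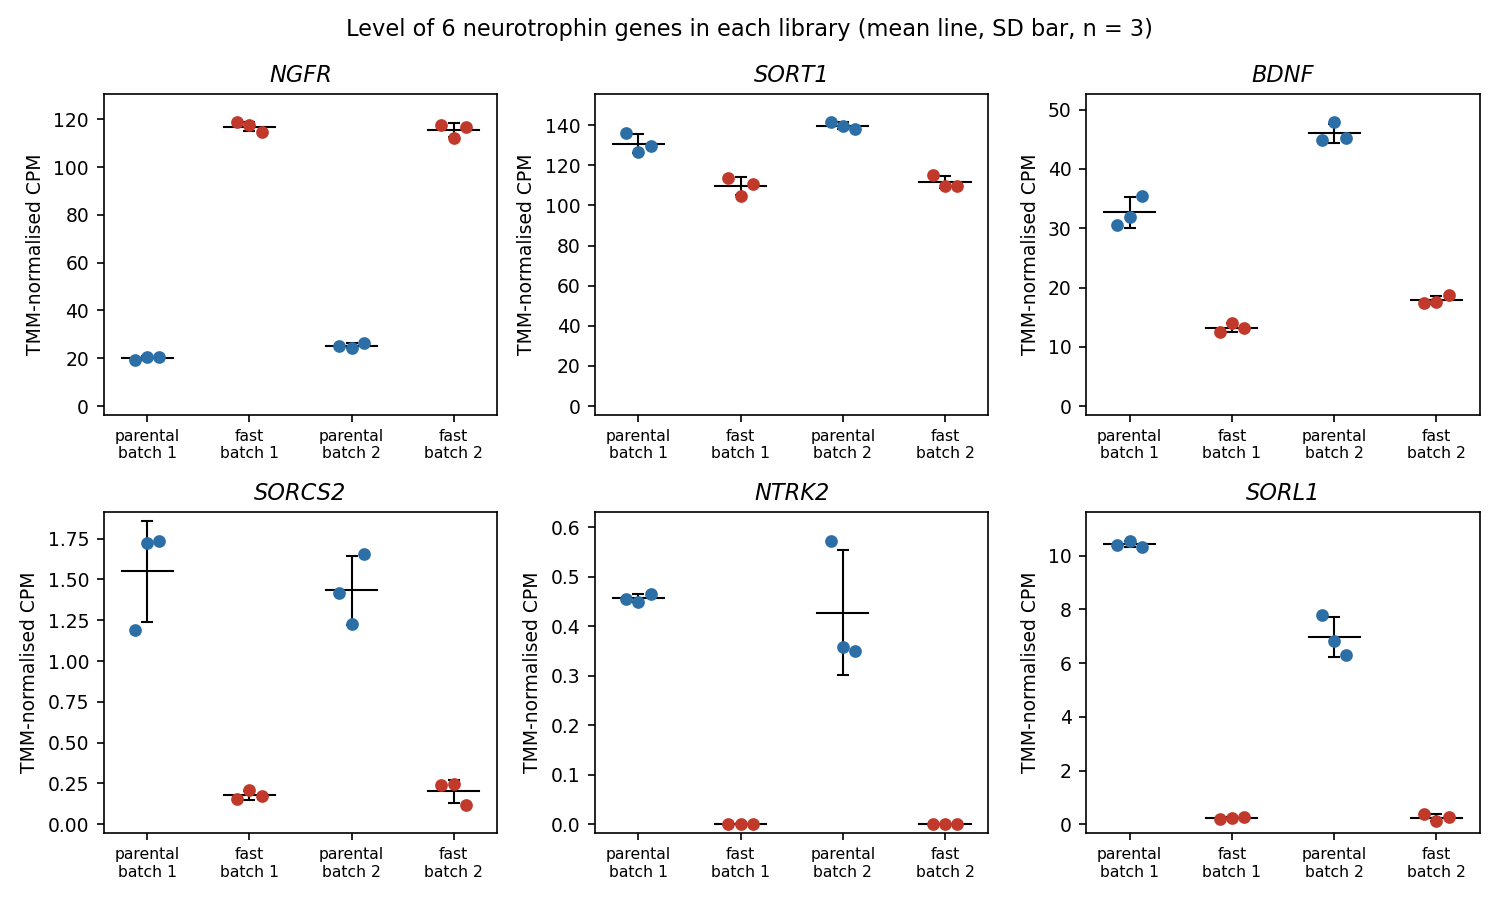
TMM-normalised CPM of NGFR, SORT1, BDNF, SORCS2, NTRK2 and SORL1, a relative of SORT1, in each of the 12 libraries, by population and batch; points are libraries, lines are means of 3 and bars are SD. In each of the 6 panels the fast and parental libraries did not overlap, with NGFR higher and the other genes lower in fast cells.

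The kinase receptor genes NTRK2 and NTRK3 were at or near the lower limit of detection. NTRK2, the gene for the BDNF receptor TrkB, had 26, 29 and 30 counts in the parental libraries of batch 1 and 34, 26 and 25 counts in those of batch 2. It had 0 counts in all 6 fast libraries. The parental level was thus low but present in every library, at 0.442 ± 0.082 CPM (SD, n = 6). Against a floor of 3 counts over the 6 fast libraries, NTRK2 was at least 57.7-fold lower in fast cells. NTRK3, the gene for TrkC, had 2 counts in parental batch 2 replicate 2 and 0 counts in the other 11 libraries. Intervals and floors on counts cover counting error only, since reads carried no stated molecular identifiers.

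The sortilin family encodes sorting receptors, of which sortilin and SorCS2 are the co-receptors of p75 for neurotrophin precursors named above. SORT1, the gene for sortilin, was abundant in both populations and slightly lower in fast cells. Its fast libraries stood at 113.5, 104.8 and 110.7 CPM in batch 1 and 115.4, 109.8 and 109.8 CPM in batch 2. Its parental libraries stood at 135.9, 126.8 and 129.5 CPM in batch 1 and 141.4, 139.8 and 138.0 CPM in batch 2. The populations did not overlap, but the gap was narrow. The log2 fold change was -0.29 ± 0.03 SE, or 1.22-fold lower, with -0.25 ± 0.04 SE in batch 1 and -0.32 ± 0.04 SE in batch 2.

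SORCS2, the gene for SorCS2, was lower in fast cells at a low level. The fast libraries had 10, 14 and 9 counts in batch 1 and 18, 17 and 8 in batch 2. The parental libraries had 68, 111 and 112 counts in batch 1 and 84, 89 and 118 in batch 2. Every parental library thus held more than any fast library. The levels were 0.190 ± 0.050 and 1.49 ± 0.25 CPM (SD, n = 6), a log2 fold change of -2.95 ± 0.21 SE or 7.74-fold lower. Of the other family members, SORL1, the gene for the sorting receptor SorLA, fell from a parental 8.70 ± 1.95 CPM to a fast 0.239 ± 0.087 CPM (log2 fold change -5.14 ± 0.14 SE, 35.3-fold lower, edgeR adjusted p = 4.12e-25). SORCS1 and SORCS3 had 0 counts in all 12 libraries.

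**Figure D2:**
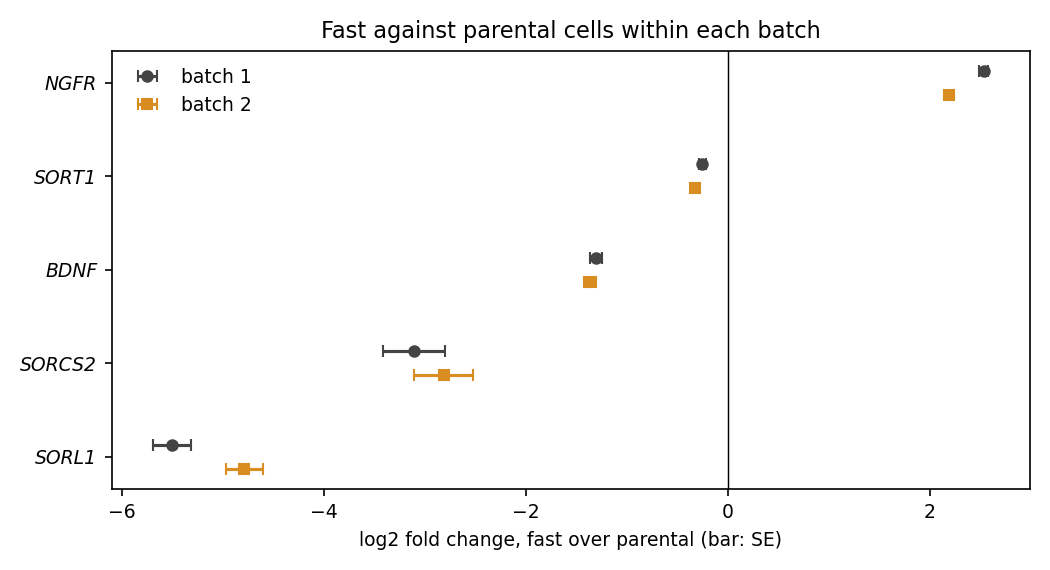
Log2 fold change of fast over parental cells within batch 1 (circles) and batch 2 (squares) for 4 members and for SORL1; bars are SE. NGFR lies to the right of 0 in both batches, at 2.54 and 2.19, and the other 4 genes lie to the left in both.

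Of the 5 members that passed the filter, 1 was called higher and 4 were called lower in fast cells by edgeR. The same 1 and 4 had no overlap between the populations. Over all 22668 genes, 31.9% were called higher and 31.5% lower, and 18.8% were higher and 19.6% lower without overlap. Because the members were selected on this contrast, nothing is read from these counts.

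Levels of different genes were compared per kb of exon. NGFR stood at 28.01 CPM per kb in fast and 5.47 in parental cells, SORT1 at 12.1 and 14.8 CPM per kb, and BDNF at 2.01 and 5.08 CPM per kb. In fast cells NGFR was thus the highest of the 7, followed by SORT1 and then BDNF. In parental cells SORT1 was the highest, and NGFR and BDNF were close to each other. In CPM without length scaling, parental BDNF stood above parental NGFR, at 39.35 against 22.69 CPM. The NGFR to BDNF ratio of length-scaled levels ran from 0.952 to 1.20 over the parental libraries and so lay on both sides of 1, while it ran from 11.7 to 17.6 over the fast libraries. The NGFR to SORT1 ratio ran from 0.314 to 0.420 in parental and from 2.25 to 2.47 in fast libraries. Below these 3 genes came SORCS2, at 0.030 and 0.236 CPM per kb in fast and parental cells, and NTRK2, at 0.0217 CPM per kb in parental cells. Among 21551 tested genes with a known exon length, NGFR ranked above 90.5% in fast and above 63.5% in parental cells.

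**Figure D3:**
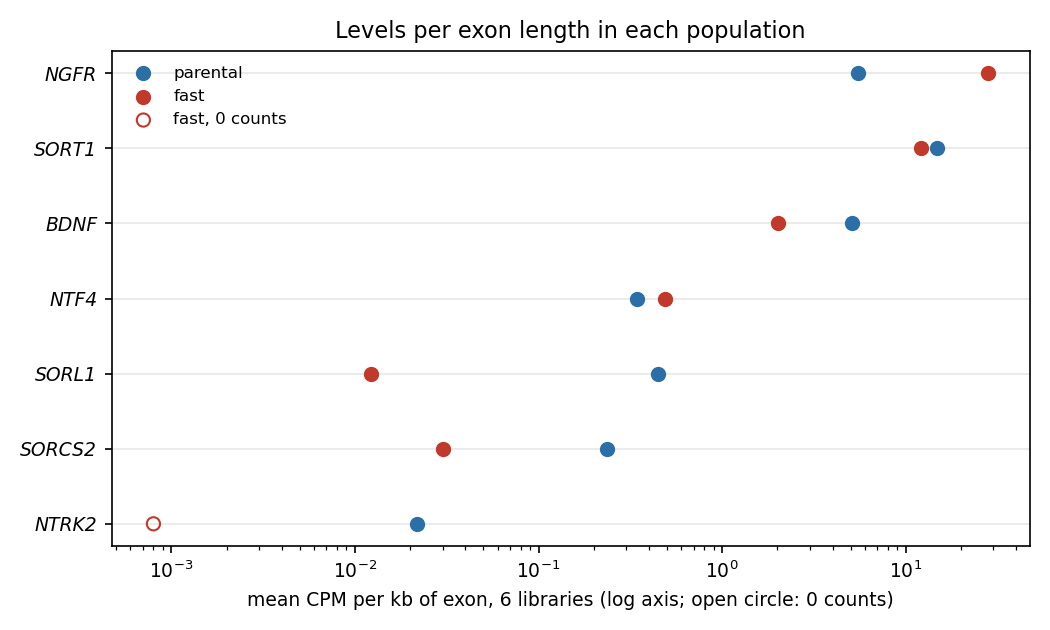
Mean CPM per kb of exon over the 6 libraries of each population, on a log axis, for members and relatives that had counts; the open circle marks 0 counts. NGFR and SORT1 exchange their order between the populations, with NGFR at 28.01 and SORT1 at 12.1 in fast cells against 5.47 and 14.8 in parental cells.

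The difference between batches, averaged over both populations, was not used to choose the members and was tested. Of the 5 members, 3 were called, against 39.7% of all genes tested. BDNF was higher in batch 2 by a log2 fold change of 0.46 ± 0.04 SE (edgeR adjusted p = 1.80e-12), and NGFR by 0.15 ± 0.03 SE (adjusted p = 3.69e-05). The BDNF mean was higher in batch 2 in both populations. For NGFR only the parental mean was, at 25.25 against 20.14 CPM, while the fast mean was 115.5 against 116.9 CPM. SORT1 was higher by 0.06 ± 0.03 SE at an adjusted p of 0.0486, close to the threshold, and SORCS2 was not called (adjusted p = 0.939). BDNF was the one call present in every setting tried: the NGFR call was lost with limma-voom (adjusted p = 0.167) and on sums of the 3 libraries (0.204). The SORT1 call was lost in 5 of these settings as well as without any of 10 single libraries.

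Antisense genes overlap NGFR and BDNF, and the counting is not stated to use strand, so their reads cannot be told apart from those of the members. RP5-1029K10.2, opposite NGFR, had a fast level of 9.42 CPM and a parental level of 1.92 CPM, a log2 fold change of 2.303 ± 0.10 SE against 2.36 for NGFR. BDNF-AS, opposite BDNF, stood at 3.07 ± 0.71 and 8.10 ± 1.65 CPM (SD, n = 6), a log2 fold change of -1.40 ± 0.09 SE against -1.34 for BDNF. Each antisense gene was far below its partner in CPM and moved in the same direction. NTRK3-AS1 had 0 counts in all libraries.

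The 10 nearest genes of at least 1 CPM on each side were set beside each member, in the order of the annotation. Over all genes tested, 31.9% were called higher and 31.5% lower. Around NGFR on chromosome 17, the 20 neighbours had a median log2 fold change of 0.04, with 8 called higher and 5 lower. Apart from the antisense gene, no neighbour came near the NGFR value. Around BDNF on chromosome 11, 17 of 20 neighbours, BDNF-AS among them, were called lower and 1 higher, with a median of -0.58. Among them, ANO5, an anoctamin gene chosen here after its values were seen, had 4 counts in fast and 775 in parental libraries. Most neighbours of BDNF were thus lower as well, also with BDNF-AS set aside, while those of NGFR were not mostly higher. Around NTRK3 on chromosome 15, 13 of 20 neighbours were called lower and 4 higher, with a median of -0.32. Around NTRK2 on chromosome 9 the median was 0.07, with 7 called higher and 5 lower. One of the 5, the kinase gene DAPK1, also chosen after its values were seen, had 0 counts in fast and 907 in parental libraries. The median was 0.02 around SORT1, -0.01 around NTF3 and -0.15 around SORCS2.

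**Figure D4:**
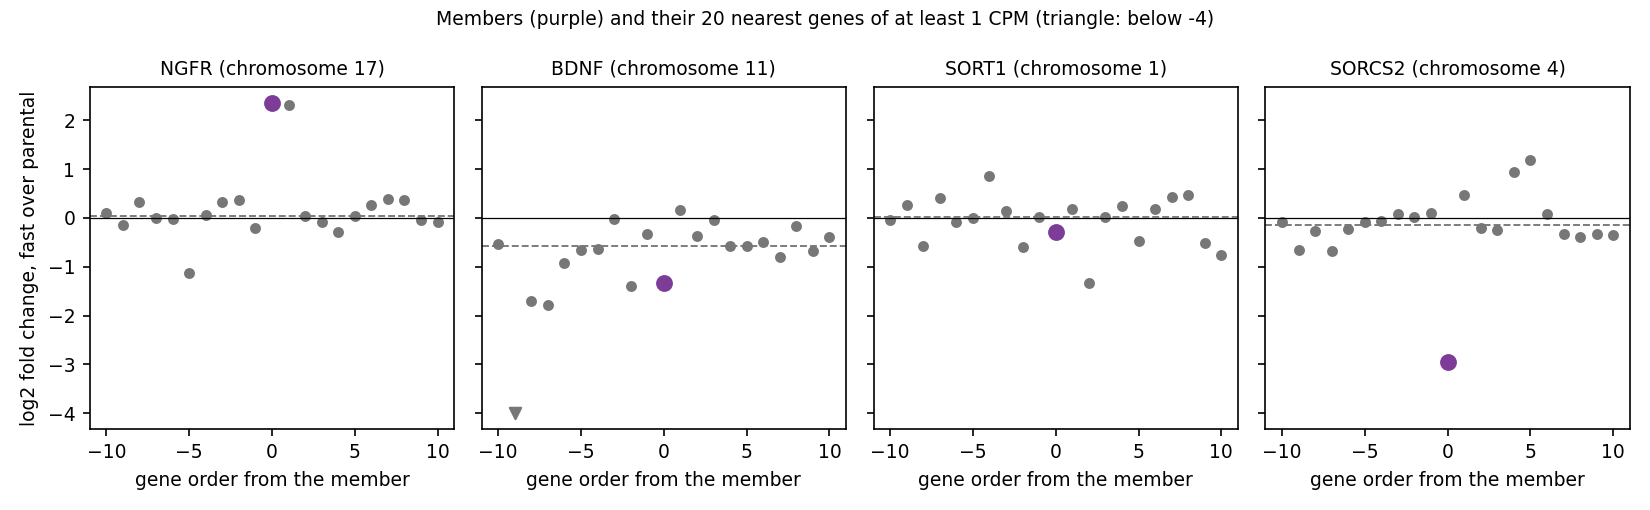
Log2 fold change of fast over parental cells for 4 members (large points) and their 20 nearest genes of at least 1 CPM (small points, by gene order); the dashed line is the neighbours' median, and the triangle is a gene below the axis. The neighbours of BDNF lie mostly below 0, with a median of -0.58, while those of NGFR lie around 0.04.

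The 5 genes whose pattern over the 12 libraries was most like NGFR were found among 11093 genes with a mean of at least 5 CPM, by the root mean square difference of gene-centred log2 CPM. They were CALB2 (0.102), a calcium-binding protein gene, PDE2A (0.115), a cyclic nucleotide phosphodiesterase gene, ZNF114 (0.144), a zinc finger gene, PLEKHG4 (0.179) and TNFRSF1B (0.186). TNFRSF1B encodes a tumour necrosis factor receptor of the same family as p75, and had a fast level of 14.8 ± 1.14 CPM and a parental level of 2.37 ± 0.35 CPM (SD, n = 6). CALB2 stood at 103.9 ± 5.19 and 19.3 ± 1.57 CPM. The 12 libraries share populations and batches, so any gene with a like difference between populations scores as similar. Ranking by Pearson correlation named 5 other genes, with 0 shared.

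The wider pathway was read from 10 lists of 108 genes outside the 7, of which 93 were tested. Of these, 37 rose (39.8%) and 26 fell (28.0%), with 30 not called, against 31.9% and 31.5% of all genes. The same shares of all genes apply beside the counts of each list below, and most lists hold few tested genes. Their median log2 fold change was 0.05, beside 0.01 over all genes. Changes of at least 2-fold were made by 2 genes upward and 6 downward, where all genes gave 3.98% and 6.92%. The 2 were GFRA1 and SHC2, and the 6 included SORL1, MAGEH1 and MAGED1. Of the 63 called genes, 61 had the same sign in both batches.

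Among convertases and proteases that cut neurotrophin precursors, 3 of 6 tested genes fell in fast cells and 1 rose. PCSK5 fell from 9.69 CPM in parental to 6.10 CPM in fast cells (log2 fold change -0.67 ± 0.07 SE), PCSK7 from 59.8 to 41.3 CPM (-0.53 ± 0.03 SE) and FURIN from 65.1 to 47.3 CPM (-0.46 ± 0.04 SE), each at an edgeR adjusted p of at most 4.82e-11. The 1 that rose was PLAT, the gene for tissue plasminogen activator. Its fast level was 94.1 CPM and its parental level 70.0 CPM, and it is named as the single exception after its values were seen.

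The enzymes that cleave p75 split evenly, with 3 of 8 higher and 3 lower. Of the gamma-secretase subunits, APH1A fell from 141.8 CPM in parental to 93.8 CPM in fast cells (log2 fold change -0.60 ± 0.03 SE, edgeR adjusted p = 1.08e-19) and NCSTN from 97.5 to 83.4 CPM (-0.22 ± 0.03 SE, adjusted p = 1.36e-08). APH1B, which takes the same place in the complex as APH1A, rose from 7.02 to 9.93 CPM (0.50 ± 0.06 SE, adjusted p = 1.46e-08).

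Among p75 adaptors and effectors, 7 of 13 tested genes fell and 5 rose. MAGEH1 fell from 8.80 to 0.0620 CPM (3428 to 26 counts; log2 fold change -7.03 ± 0.17 SE, edgeR adjusted p = 8.25e-28). MAGED1, the gene for the p75-binding protein NRAGE, fell from 33.1 to 10.1 CPM (-1.74 ± 0.06 SE, adjusted p = 2.98e-20). IRAK1, a kinase gene of the p75 and interleukin-1 receptor pathways, fell from 455.4 to 302.9 CPM (-0.59 ± 0.03 SE, adjusted p = 1.88e-20). These 3 genes lie on the X chromosome. All 5 tested pathway genes of that chromosome, with NGFRAP1 and RPS6KA3, were lower. Over the 751 tested genes of the X chromosome, 69.2% were called lower and 7.32% higher, with a median log2 fold change of -0.58. The chromosome was looked at after these values were seen.

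Trk adaptors and downstream kinases had more higher than lower genes. Of 20 adaptors 9 rose and 1 fell, and of 22 downstream kinases and GTPases 12 rose and 5 fell. Of all genes, 31.9% rose and 31.5% fell. Both lists moved by little, with medians of 0.07 and 0.10. PLCG2, a phospholipase gene, rose from 3.30 CPM in parental to 5.15 CPM in fast cells (log2 fold change 0.65 ± 0.11 SE, edgeR adjusted p = 3.84e-06), and the adaptor genes CRK and GRB2 rose by 0.45 ± 0.03 SE and 0.36 ± 0.03 SE. Of the downstream genes, RPS6KA1 rose by 0.47 ± 0.03 SE, while HRAS fell from 101.5 to 67.0 CPM (-0.60 ± 0.03 SE, adjusted p = 3.97e-18). KIDINS220, the gene for a scaffold of Trk and p75 receptors, rose from 69.0 to 82.1 CPM (0.25 ± 0.03 SE, adjusted p = 2.01e-08).

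Of 13 tested genes known to be induced by neurotrophin treatment of neuronal cells, 4 rose, 3 fell and 6 were not called. By log2 fold change, the 6 not called were all higher in fast cells in batch 1 and lower in batch 2. They were EGR1 (0.34 in batch 1 and -1.54 in batch 2), ARC (1.19 and -2.25) and FOS (1.16 and -0.80). The others were EGR2 (0.58 ± 0.42 SE and -1.60 ± 0.43 SE), SPRY2 (0.52 and -0.31) and JUNB (0.36 and -0.20). Opposite signs offset each other over both batches. A missing call here is thus not an absence of difference within a batch. VGF rose from 3.43 CPM in parental to 4.99 CPM in fast cells (log2 fold change 0.54 ± 0.08 SE, edgeR adjusted p = 1.09e-06) and PLAUR, the urokinase receptor gene, from 170.1 to 241.6 CPM (0.50 ± 0.04 SE, adjusted p = 1.40e-09). NR4A1 was called lower (-0.90 ± 0.35 SE, adjusted p = 0.0444), with 0.04 in batch 1 and -2.07 in batch 2. That call was lost without a batch term (adjusted p = 0.11) and on sums of libraries (0.595). It was also lost without fast batch 1 replicate 3, without any 1 library of fast batch 2 and without any 1 of parental batch 2 (0.0511 to 0.0944). In the related GDNF family, GFRA1, a co-receptor gene, rose from 1.02 to 2.11 CPM (1.04 ± 0.15 SE, adjusted p = 1.17e-07), and ARTN, the artemin gene, fell from 6.86 to 3.98 CPM (-0.79 ± 0.09 SE, adjusted p = 9.56e-10).

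**Figure D5:**
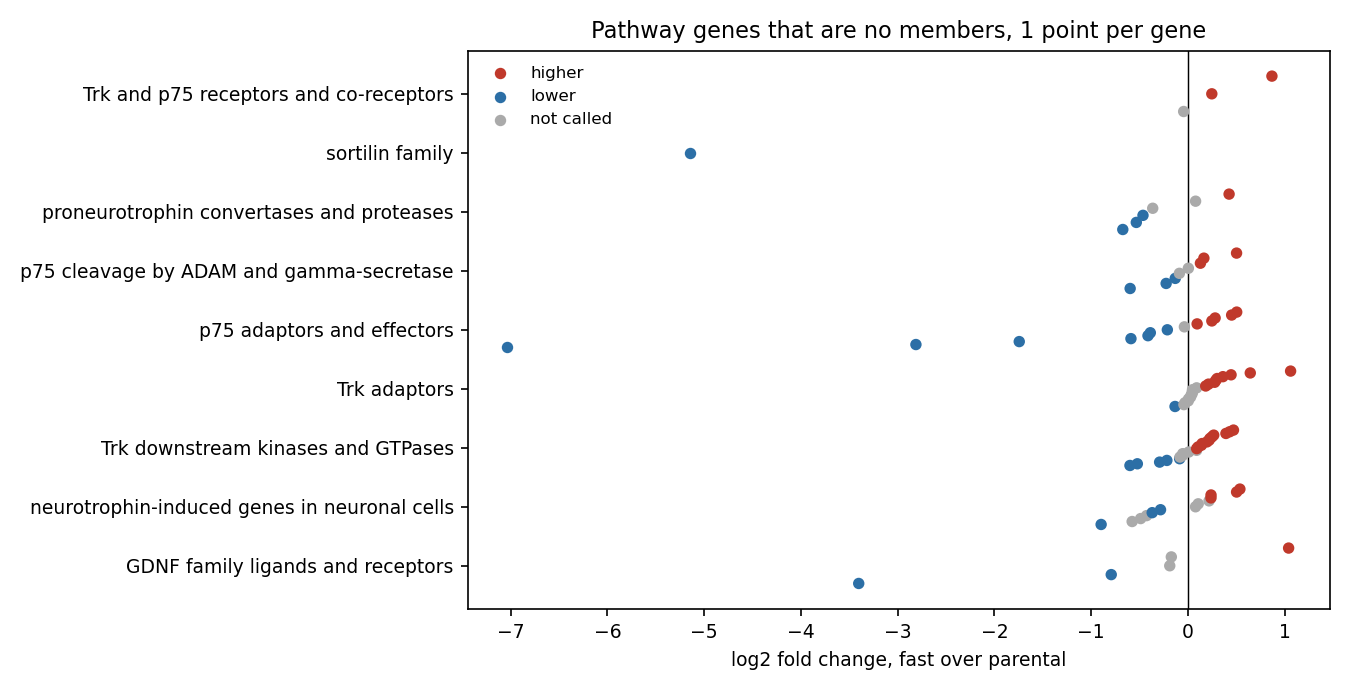
Log2 fold change of fast over parental cells for tested pathway genes outside the 7, in 9 of the 10 lists; points are genes, coloured by their edgeR call. Most points lie within 1 of 0, and the sorting receptor gene SORL1 and the p75 adaptor gene MAGEH1 lie farthest to the left, at -5.14 and -7.03.

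Because NGFR is a marker of several cell types, markers of those types were read beside it. The summed level of 8 Schwann and neural crest markers ran from 21.6 to 24.3 CPM in fast and from 21.4 to 25.5 CPM in parental libraries, so the ranges overlapped. The 9 neuron markers summed to 175.0 to 184.9 CPM in fast and 88.1 to 98.7 CPM in parental libraries, nearly all of it TUBB3, a tubulin gene, while ELAVL4, NEFL and STMN2 were at 0. Of the 4 tested neuron markers, 2 were called higher in fast cells and 1 lower, against 31.9% and 31.5% of all genes. Beside TUBB3, SYT1 was higher (3.10 CPM in parental, 8.12 CPM in fast cells). SYP was lower (1.395 CPM in parental, 0.749 CPM in fast cells). The 8 basal and myoepithelial markers summed to 79.95 to 100.2 CPM in fast and 26.96 to 39.0 CPM in parental libraries. That sum was mostly MYLK, a myosin kinase gene, at 84.8 and 27.5 CPM. Of the 6 tested basal markers, 4 were called lower in fast cells and 2 higher, where 31.5% and 31.9% of all genes were. The 7 leukocyte markers summed to less than 1 CPM in every library. The 7 fibroblast markers summed to 9.13 to 11.75 CPM in fast and 14.1 to 16.4 CPM in parental libraries, with DCN and LUM at 0. The part of these markers in the NGFR difference was not tested.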

How the data were processed

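The authors deposited raw read counts, without normalization, of 60234 genes for the 12 libraries, and every column was matched to its sample by the labels. Trimmomatic 0.32, STAR 2.3.0e and featureCounts 1.4.4, with the builds hg19 and GRCh37, are named in the submitters' processing notes. Strand use and the treatment of reads with several matches are not given in the sources used here.

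Counts were analysed in edgeR 4.0.16 under R 4.3.3, with TMM scaling, the package's low-count filter (minimum count 10, minimum total 15) and a robust quasi-likelihood fit with batch as a term. Effects within batches and the difference between batches came from a cell-means model. P-values were adjusted by Benjamini-Hochberg over all 22668 tested genes, with 0.05 as the threshold. The SE is the log2 fold change divided by the square root of the F statistic. The steps were tested on simulated counts. Alternatives used limma 3.58.1, DESeq2 1.42.0, other filters and scalings, and each library left out.

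The members and lists were chosen with earlier results of these data known. Named genes were the members, up to 3 called genes per list by size of change at a mean of at least 1 CPM, other ligands and receptors, the 5 genes most like NGFR and the antisense genes. The nearest tested genes fell under the rule too. Those of at least 1 CPM are described through the neighbour medians. Those below it were CBX3P1 beside BDNF (log2 fold change 0.69), SLC28A3 beside NTRK2 (-2.63), and RP11-1038A11.1 (1.86) and ANO2 (-2.00) beside NTF3. A few genes under this rule are not reported. Exon lengths and gene order came from GENCODE release 29, on another build than the counts, by gene ID.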

Additional observations from a re-analysis of the deposited data

How the results depend on the processing

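Of 774 values recomputed under the alternatives, 729 kept their direction and their side of the threshold, or their size. The values that changed direction, 9 in all, were differences between batches that were not called under any setting. That of SORCS2, 0.03, was -0.047 with DESeq2, -0.086 with limma-voom, -0.032 on sums and -0.058 to 0.151 when single libraries were left out, 5 of them turning its sign. That of NTRK2, -0.05, was -0.183 to 0.003, with 0.003 without parental batch 2 replicate 2. The cause was not tested. The count of members lower in fast cells, 4, was 2 under a filter at a mean of 1 CPM, since NTRK2 and SORCS2 do not reach that mean. The count of members that differed between batches, 3, was 1 with limma-voom, 1 when the 3 libraries of a group were summed, and 2 to 3 when single libraries were left out. The cause of these last changes was not tested. For the other pathway genes, 37 higher and 26 lower, leaving out single libraries gave 36 to 39 and 24 to 26, sums gave 34 and 21, no batch term gave 31 and 23, and the filter at 1 CPM gave 34 and 29. With the batch and replicate number as a replicate block, 37 were higher and 24 lower, 1 and 4 members were higher and lower, and NR4A1 was no longer called (adjusted p = 0.146). Same-numbered libraries did not deviate together (correlations -0.077 to 0.074 over 6 pairs), but so few pairs cannot exclude a pairing. Replicates were numbered by the sample titles, and some count columns of batch 1 carry other numbers. Depth limits NTF3 and NTRK3, whose counts were too few to compare.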
